A study of Mus musculus with 26 samples.

Results

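The effect of *Pla2g4d* loss was examined in keratinocytes that received no added cytokine. Of the 26 libraries of the experiment, the 13 labelled basal were compared, 8 from KO mice and 5 from WT mice, and these were all libraries with that label. Each library was made from primary keratinocytes of 1 mouse of 2 days of age. The KO mice carry a germline deletion made with CRISPR-Cas9 that removes exon 3 of *Pla2g4d*, so that every cell type of the animal lacks it. The KO line is on a C57BL/6NJ background and was bred as homozygotes, so that genotype and breeding line cannot be told apart. The methods of the study do not name the strain of the WT controls. Cells of both genotypes had grown for 4 days in EpiLife medium with HKGS supplement and 0.06 mM CaCl2, a calcium level that holds keratinocytes in a proliferating, little differentiated state. The other 13 libraries come from the same mice after 24 h with IL17A and TNFα, each at 20 ng/ml, and they are used here only to set the basal difference beside the difference with cytokines. Sex, litter and sequencing batch were not given in the labels, and the sex-linked genes gave both sexes in each genotype.

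PLA2G4D is a member of the group IV cytosolic phospholipases A2, enzymes that release or transfer fatty acids of membrane phospholipids and thereby feed the synthesis of lipid mediators. Keratinocytes at the base of the epidermis hold on to the basement membrane through integrins and hemidesmosomes, pull on it with actin and myosin, and divide. Cells that leave this layer make desmosomes, the keratins K1 and K10, a cornified envelope and the ceramides of the barrier. Injured or stimulated keratinocytes make cytokines and chemokines through NF-κB and AP-1, and they change shape through actin, serum response factor (SRF) and YAP. The comparison asks how far the resting state of these programs depends on *Pla2g4d*.

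Libraries held between 42072745 and 74595457 counts, and levels are given in CPM (counts scaled to the library size and normalized for library composition with TMM). Between any 2 libraries of a group the counts differed by at least 13.4 times the variance of counting error, so that counting error was a small part of the spread. Animal, culture and library preparation cannot be told apart in this spread, since each mouse gave 1 basal library. The values are counts per gene, which include the exons outside the deletion and therefore do not check the loss of exon 3. *Pla2g4d* (GRCm39 chromosome 2, 120096076 to 120119678, minus strand) reached 1.22, 4.41, 3.14, 3.34 and 4.63 CPM in the 5 WT libraries and 1.15 to 2.98 CPM (median 2.10) in the 8 KO libraries (log2 fold change -0.70, SE 0.26, adjusted p = 0.0935, where SE is the standard error of the log2 fold change), and the ranges overlapped. Blocked on the mouse, the adjusted p of *Pla2g4d* was 0.519. The 12 keratinocyte markers, led by the basal keratins *Krt5* and *Krt14*, summed to 51586 to 56094 CPM in WT and 48969 to 57026 CPM in KO libraries. In this list *Trp63*, *Itgb4* and *Sfn* rose and *Perp* fell. Melanocyte markers summed to 584 to 819 CPM in WT and 641 to 856 CPM in KO libraries, with 0 of 11 members past the test. Fibroblast markers summed to 13.9 to 28.1 CPM in WT and 11.1 to 22.9 CPM in KO libraries, immune cell markers to 23.8 to 35.5 and 22.3 to 43.1 CPM, and endothelial markers to 11.3 to 15.7 and 12.9 to 19.2 CPM, with 7 of 8 KO libraries above all WT libraries for the last. In these lists *Fbn1* of fibroblasts (1.21 ± 0.164 CPM in WT cells against 0.533 ± 0.183) and *H2-Ab1* of immune cells (0.356 ± 0.132 CPM in WT cells against 0.104 ± 0.0922) fell. Of the endothelial list, *Cdh5*, *Emcn* and *Cldn5* were at 0 in all 13 libraries, *Flt1* (7.13 ± 1.79 CPM in WT cells against 10.7 ± 2.33) and *Pecam1* (0.816 ± 0.403 CPM in WT cells against 1.59 ± 0.528) rose, and *Flt1* held most of the sum. Among markers of Schwann cells and neurons 4 of 8 measured members rose and 1 fell. Markers of hair follicle and sebaceous cells summed to 23.7 to 29.4 CPM in WT and 27.01 to 30.1 CPM in KO libraries and those of adipocytes to 3.74 to 10.8 and 4.15 to 10.2 CPM, and no measured member of either list passed the test. Muscle markers summed to 4.67 to 6.44 CPM in WT and 4.72 to 6.51 CPM in KO libraries, with *Actc1*, *Myh4* and *Myh8* at 0 in all 13. Of this list *Tnni2* fell (4.28 ± 0.815 CPM in WT cells against 3.22 ± 0.466) and *Acta1* rose (0.979 ± 0.463 CPM in WT cells against 1.80 ± 0.437), and *Tnni2* passed the test in 4 of the 13 fits without 1 mouse. The part of these cells in the differences below was not tested. In bulk samples fewer cells of a type and less RNA per cell cannot be told apart.

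The first principal component of the 2000 most variable autosomal genes held 22.4% of the variance and set 1 WT and 1 KO library apart from the other 11, WT replicate 2 at -62.7 and KO replicate 4 at -70.0, where the others lay between -2.71 and 23.9. The second component held 11.3% and carried the genotype. WT libraries lay between -1.28 and 33.9 on it and KO libraries between -32.5 and 2.90, and WT replicate 1 lay among the KO libraries. List counts of 4 genes or more that moved by over 1.5 times without 1 of the 13 mice, or without WT replicate 2 and KO replicate 4 together, are given beside that value.

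**Figure D1:**
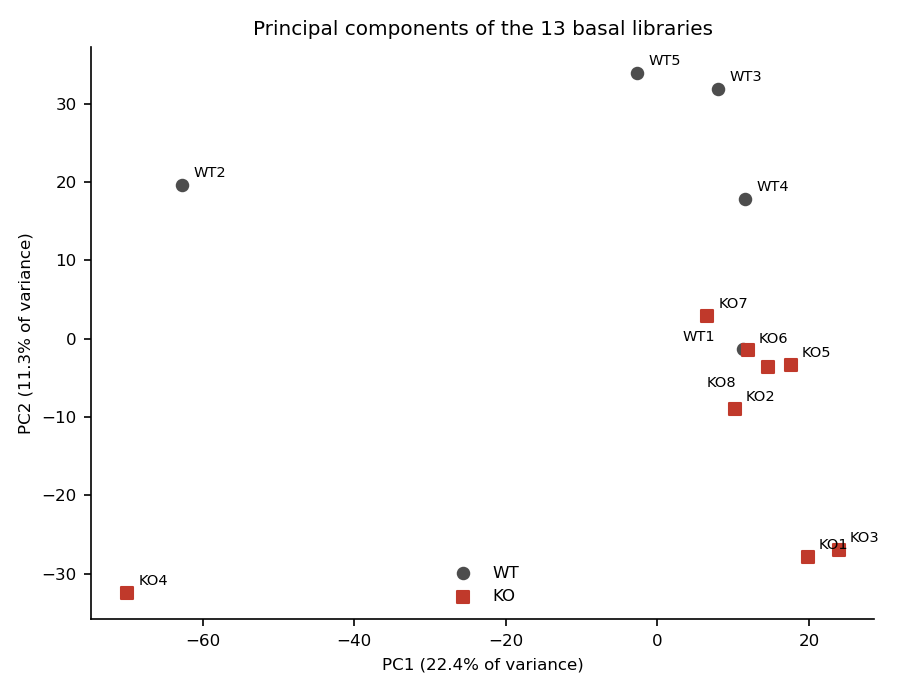
Principal components of the 13 basal libraries (PC1 and PC2 in units of log2 CPM distance, 1 point per mouse, circles WT, squares KO). WT2 and KO4 stand apart on PC1, at -62.7 and -70.0, and on PC2 WT1, at -1.28, lies among the KO libraries, which reach up to 2.90.

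Genes of the cytoskeleton, of the matrix and of signalling were among those that rose in KO cells, and single genes of the differentiated epidermis and of lipid hydrolysis were among those that fell. Under basal conditions 2303 of 16893 genes passed an adjusted p of 0.1 in edgeR's quasi-likelihood test, 1279 higher in KO cells (7.57% of the genes tested) and 1024 lower (6.06%). The shares of 7.57% and 6.06% are the background for the counts of every list below. Of the 2303 genes, 453 (2.68%) also changed more than 1.5-fold and are called differentially expressed below, 272 (1.61%) higher and 181 (1.07%) lower. In 323 genes (1.91%) every KO library lay above every WT library, and in 189 genes (1.12%) every KO library lay below. The count turned on single mice, and without WT replicate 1 it rose to 824, 527 higher and 297 lower. Without WT replicate 2 and KO replicate 4 it was 384, 224 higher and 160 lower. In limma-voom with the mouse as a replicate block, lower genes outnumbered higher ones, with 236 genes higher and 296 lower, and the same fit without the block gave 235 and 301.

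Among called autosomal genes with a mean normalized count over 100, the largest rises were those of *Apod* (1.96 on the log2 scale), *Serpina3n* (1.57), *Il23a* (1.42), *Krt8* (1.41), *Plac8* (1.40), *Krt18* (1.37), *C3* (1.33), *Tnf* (1.29), *Gprc5a* (1.24), *Col14a1* (1.17), *Glipr2* (1.17) and the unnamed transcript *Gm55276* (1.16). *Apod* encodes apolipoprotein D, a carrier of arachidonic acid and other small lipids, and its level was 0.712, 0.356, 0.290, 1.64 and 0.520 CPM in WT and 1.74 to 3.58 CPM (median 2.83) in KO libraries, without overlap. *Plac8* was at 1.94, 1.78, 1.87, 0.755 and 0.662 CPM in WT and at 2.32 to 4.96 CPM (median 3.81) in KO libraries, again without overlap. *Serpina3n*, a secreted protease inhibitor of the acute phase, rose from 1.12 ± 0.648 to 3.41 ± 1.66 CPM, with overlapping ranges. *Krt8* and *Krt18*, the keratin pair of simple epithelia, rose from 3.24 ± 3.20 to 8.62 ± 4.61 CPM and from 1.32 ± 0.662 to 3.40 ± 1.99 CPM, and the ranges of both genes overlapped. WT replicate 1 held 8.82 CPM of *Krt8*, against 3.08 CPM or less in the other 4 WT libraries.

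The largest falls were those of *Aadac* (-1.47), *4631405J19Rik* (-1.43), *Prlr* (-1.26), *Aadacl2* (-1.19), *Frem2* (-1.18), *9330151L19Rik* (-1.05), *Klk11* (-1.04), *Skint8* (-1.02), *Serpinb3b* (-1.02), *Cyp2b19* (-1.01), *Gm42047* (-1.01) and *Ofcc1* (-0.995). *Aadac* and *Aadacl2* encode serine esterases of the arylacetamide deacetylase family. *Aadac* was at 2.26, 4.58, 2.45, 3.54 and 3.73 CPM in WT and 0.737 to 1.49 CPM (median 1.21) in KO libraries, and every KO library lay below every WT library. *Klk11*, a kallikrein protease of the differentiating epidermis, was at 8.68, 13.97, 9.45, 11.2 and 14.1 CPM in WT and 4.25 to 7.995 CPM (median 5.52) in KO libraries, without overlap. *Cyp2b19*, a keratinocyte cytochrome P450 that makes epoxides of arachidonic acid, fell from 69.2 ± 24.5 to 34.4 ± 9.75 CPM and its ranges overlapped. The prolactin receptor *Prlr* fell from 4.23 ± 1.23 to 1.77 ± 0.782 CPM. *Frem2*, a protein of the epidermal basement membrane, fell from 4.20 ± 2.42 to 1.85 ± 0.348 CPM, where WT replicate 3 held 8.47 CPM and the other WT libraries 3.69 CPM or less.

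The nuclear long noncoding RNAs *Neat1* and *Malat1* also fell, *Neat1* from 688 ± 124 to 357 ± 69.1 CPM (log2 fold change -0.95, SE 0.13, adjusted p = 1.52e-05) without overlap and *Malat1* from 3413 ± 1002 to 1972 ± 508 CPM (log2 fold change -0.79, SE 0.18, adjusted p = 0.00348). Both RNAs are kept in the nucleus. The ranges of *Malat1* overlapped.

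Genes of the actin cytoskeleton and of contractility rose as a group. Of 52 measured members 42 rose and 0 fell, beside 7.57% and 6.06% of all genes tested. Every KO library lay above every WT library in 31 members, beside 1.91% of all genes, and 6 were called. The median log2 fold change of the list was 0.32, beside 0.00038 for all genes tested. Its mean log2 CPM per library, centred on the 13 libraries, ran from -0.23 to -0.17 in WT and from 0.03 to 0.17 in KO cells, so that the genotypes did not overlap. Without WT replicate 1 41 members rose and 1 fell, and without WT replicate 2 and KO replicate 4 42 rose.

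Among members with a mean normalized count over 100 the largest rises were those of *Tagln*, *Fscn1*, *Myh10* and *Acta2*. *Acta2* (chromosome 19, 34217737 to 34232990), the smooth muscle α-actin that marks contractile cells, held 288, 349, 314, 316 and 296 CPM in WT and 468 to 624 CPM (median 542) in KO libraries (log2 fold change 0.79, SE 0.07, adjusted p = 6.42e-08). *Myh10* (chromosome 11, 68582385 to 68707470), the heavy chain of non-muscle myosin IIB, had 28.5, 25.8, 26.7, 27.3 and 24.5 CPM in WT and 40.7 to 52.8 CPM (median 47.2) in KO libraries (log2 fold change 0.84, SE 0.07, adjusted p = 1.3e-08). *Tagln*, which encodes the actin binding protein transgelin, had 14.4, 16.8, 11.5, 16.03 and 9.88 CPM in WT and 21.9 to 31.5 CPM (median 26.5) in KO libraries (log2 fold change 0.98, SE 0.13, adjusted p = 4.44e-06). None of these 3 genes showed overlap between the genotypes. *Fscn1*, the bundler of actin in filopodia, rose from 71.7 ± 20.1 to 129 ± 18.7 CPM (log2 fold change 0.85, SE 0.12, adjusted p = 2.44e-05), and its ranges overlapped.

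The rise also took in the housekeeping cytoskeleton, here named after the values were seen. β-actin, *Actb*, had 1997, 1874, 1977, 1893 and 2146 CPM in WT and 2591 to 3107 CPM (median 2873) in KO libraries (log2 fold change 0.55, SE 0.04, adjusted p = 3.64e-09). The γ-actin gene *Actg1* rose from 2138 ± 156 to 2558 ± 95.9 CPM (log2 fold change 0.26, SE 0.05, adjusted p = 0.00123). Calponin 2, *Cnn2*, rose from 319 ± 22.1 to 446 ± 16.7 CPM (log2 fold change 0.48, SE 0.04, adjusted p = 7.9e-09). Tropomyosin *Tpm1* rose from 887 ± 35.9 to 1197 ± 78.99 CPM, the non-muscle myosin IIA gene *Myh9* from 2266 ± 126 to 2846 ± 108 CPM, the regulatory light chain *Myl9* from 72.03 ± 10.9 to 109 ± 9.68 CPM, filamin A (*Flna*) from 1726 ± 71.6 to 2285 ± 146 CPM and vinculin (*Vcl*) from 358 ± 23.9 to 426 ± 25.2 CPM. In each of these 8 genes all KO libraries exceeded all WT libraries. *Srf*, the transcription factor that drives many of them, is counted among the immediate early genes and rose from 114 ± 12.95 to 147 ± 13.8 CPM (log2 fold change 0.36, SE 0.07, adjusted p = 0.0009).

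**Figure D2:**
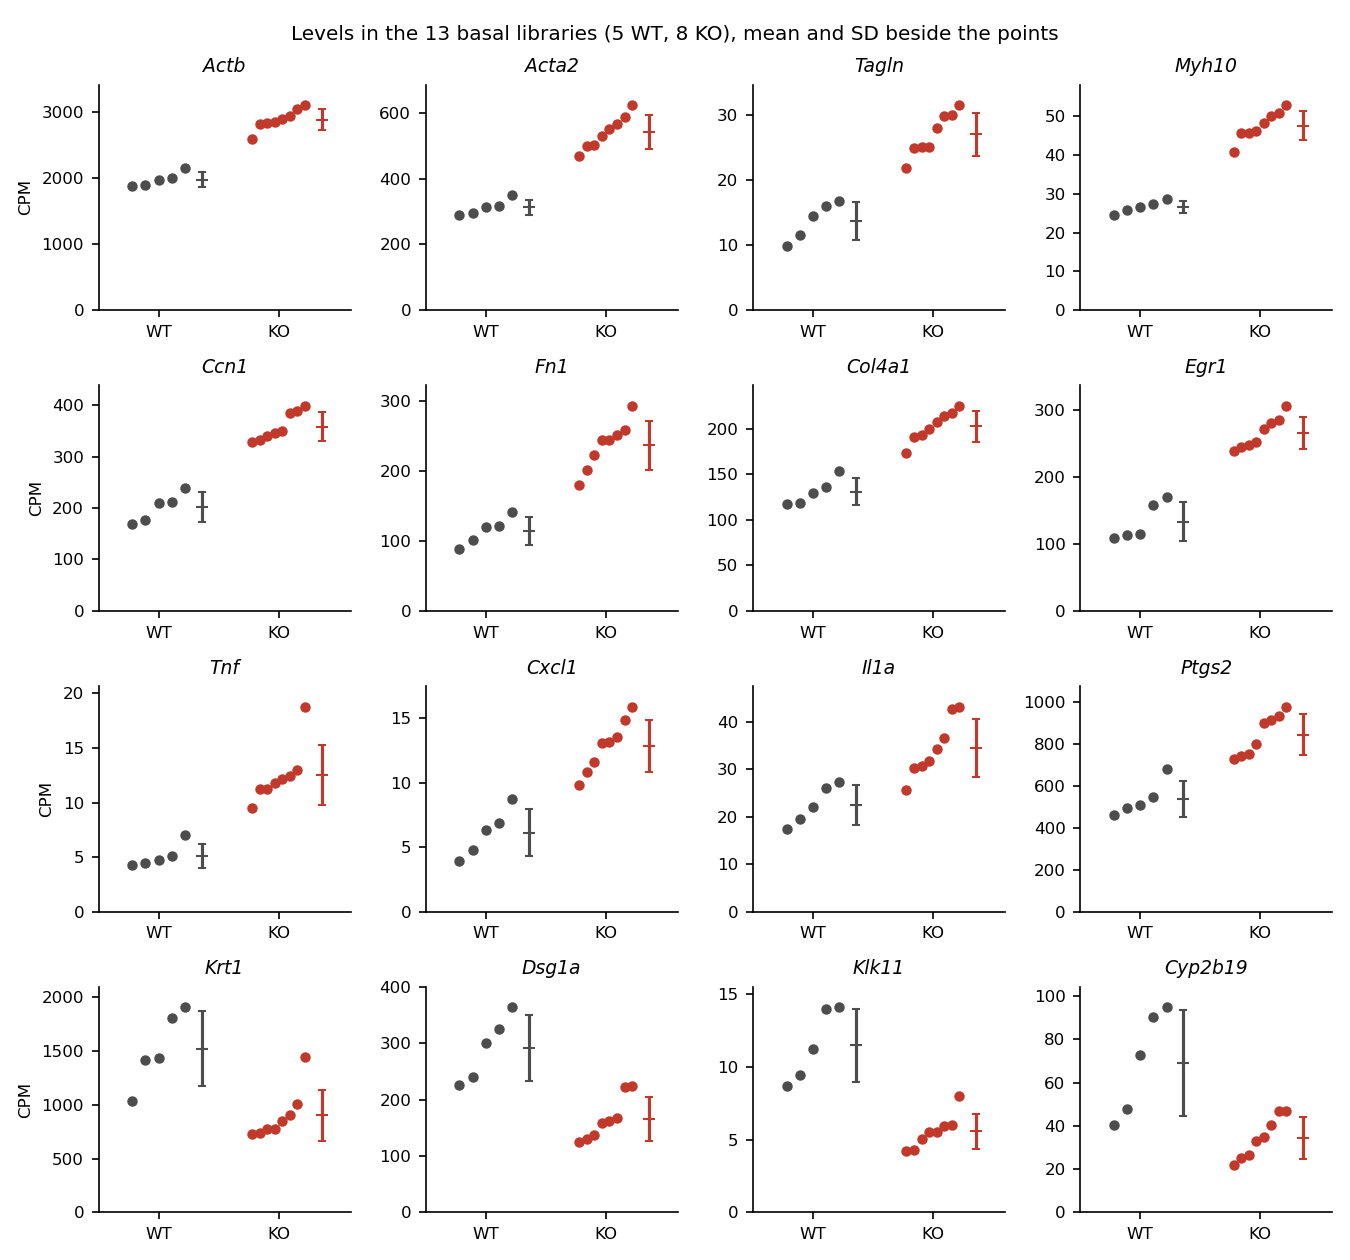
Levels in CPM of 16 genes in the 13 basal libraries (grey WT, n = 5, red KO, n = 8, 1 point per mouse in order of size, with the mean and SD beside them). For *Actb*, *Acta2*, *Tagln*, *Myh10*, *Ccn1*, *Fn1*, *Col4a1*, *Egr1*, *Tnf*, *Cxcl1*, *Ptgs2*, *Dsg1a* and *Klk11* the genotypes do not overlap, and for *Il1a*, *Krt1* and *Cyp2b19* they do.

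The promoters of these genes were searched on both strands for the CArG box, the SRF binding motif, because many members moved together. The window was the 300 bases that RefSeq (GRCm38.p6) places around each start, 250 before and 50 after, and a promoter was found for 11247 of the genes tested. A CArG box lay in 15.1% of the 53 promoters of the actin list (8 promoters), in 5.09% of the 216 promoters of genes called higher, in 0.741% of the 135 promoters of genes called lower and in 1.32% of all 14363 promoters. Of the actin list, *Actg1*, *Cnn2*, *Lima1*, *Myl9* and *Vcl*, which rose, and *Fhl2* and *Myl6*, which did not pass the test, held one. Among other genes named here, *Glipr2*, *Fermt2*, *Dusp5*, *Acta1* and *Srf*, which rose, held one or more as well, and the windows of *Acta1* and *Srf* are not printed. The windows below are printed 5′ to 3′ on the gene's strand with the CArG box in capitals, since they are sites of 1 motif in the promoters of genes that rose:
Actg1: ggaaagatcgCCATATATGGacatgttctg
Cnn2: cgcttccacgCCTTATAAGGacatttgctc
Vcl: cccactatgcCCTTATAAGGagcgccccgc
Lima1: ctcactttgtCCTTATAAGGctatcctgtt
Myl9: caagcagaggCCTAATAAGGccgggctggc
Glipr2: gctgcctttgCCTTATAAGGcggggccggg
Fermt2: tccttcatttCCATAAAAGGgcagcgctcc
Dusp5: ggggaaatacCCATATTTGGccttatatgg
They lie at chr11:120348566-120348595 (minus strand), chr10:79988534-79988563, chr14:20929161-20929190, chr15:99820177-99820206 (minus strand), chr2:156775293-156775322, chr4:43957608-43957637, chr14:45530250-45530279 (minus strand) and chr19:53529053-53529082 of GRCm38.p6, and the others are on the plus strand. The box starts 90 bases before the start of *Actg1*, 56 before that of *Cnn2* and 227 before that of *Vcl*. A second box adjoins that of *Dusp5* in the lower-case bases after it. A match in this window is no measure of binding.

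Targets of YAP and TEAD, which report on cell tension and spreading, rose in 11 of 22 measured genes and fell in 1. Their median was 0.21, and the shares over all genes tested were 7.57% higher and 6.06% lower. All 8 KO libraries had a higher mean of the list than all WT libraries (-0.32 to -0.10 in WT, 0.0043 to 0.18 in KO cells). The matricellular genes *Ccn1* and *Ccn2* led them. *Ccn1* had 211, 168, 211, 176 and 239.7 CPM in WT and 329 to 399 CPM (median 347) in KO libraries (log2 fold change 0.83, SE 0.12, adjusted p = 1.74e-05), and *Ccn2* had 62.98, 101, 80.7, 60.4 and 104 CPM and 113 to 182 CPM (median 142) (log2 fold change 0.78, SE 0.17, adjusted p = 0.003), and neither gene overlapped between the genotypes. *Dock5* (0.38) and *Gadd45a* (0.37) rose less, and the kinase gene *Nuak2* fell (log2 fold change -0.32, SE 0.05, adjusted p = 7.49e-05). *Acta2*, *Tagln* and *Ccn2* are also high in fibroblasts, of whose 15 measured markers 0 rose and 1 fell (5 without WT replicate 1), and the part of these cells was not tested. TEAD sites (GGAATG) were found in 43.8% of the 16 promoters counted for the YAP list, beside 12.5% for genes called higher and 12.6% for all promoters. That count leaves out *Ccn1*, whose promoter holds a site. In other lists the share was 36.8% (interleukins and related cytokines), 22.6% (actin), 13.3% (chemokines) and 10.3% (AP-1 and immediate early genes).

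Adhesion to the basement membrane went the same way in part. In the list of hemidesmosomes, integrins and basal lamina 19 of 36 genes rose and 3 fell (median 0.17). Fibronectin, *Fn1*, a matrix ligand of integrins, had 88.8, 141, 101, 122 and 119.6 CPM in WT and 180.4 to 293 CPM (median 244) in KO libraries (log2 fold change 1.05, SE 0.14, adjusted p = 1.15e-05). The paired chains of basement membrane collagen IV rose together, *Col4a1* from 131 ± 14.7 to 202 ± 16.8 CPM (log2 fold change 0.63, SE 0.08, adjusted p = 4.12e-06) and *Col4a2* from 82.9 ± 13.2 to 129 ± 10.03 CPM (log2 fold change 0.64, SE 0.08, adjusted p = 2.91e-06). *Fermt2*, the integrin activator kindlin-2, rose from 31.4 ± 2.69 to 49.8 ± 6.80 CPM (log2 fold change 0.67, SE 0.07, adjusted p = 4.96e-07). For all 4 genes the KO libraries lay above the WT libraries. The collagen receptor subunit *Itga1* (-0.66), *Itgb8* (-0.49) and *Col4a6* (-0.41) fell.

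Among matrix proteases and the plasminogen system 8 of 30 genes rose and 1 fell, beside 7.57% and 6.06% of all genes tested, with a median of 0.01. The urokinase receptor *Plaur*, which gathers plasmin activity at the edge of moving cells, had 26.6, 19.996, 13.8, 17.04 and 26.97 CPM in WT and 28.7 to 59.8 CPM (median 42.8) in KO libraries, without overlap (log2 fold change 1.05, SE 0.17, adjusted p = 7.74e-05). *Adam12* (0.48), the protease inhibitor *Timp3* (0.38) and *Mmp9* (0.58, adjusted p = 0.448 with the mouse as a block) rose, and *Adamts1* fell (-0.47). The count of rises was 4 without WT replicate 2 and KO replicate 4 or without WT replicate 5. It was 5 when KO replicate 1 or 1 of WT replicates 2 and 4 was left out.

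**Figure D3:**
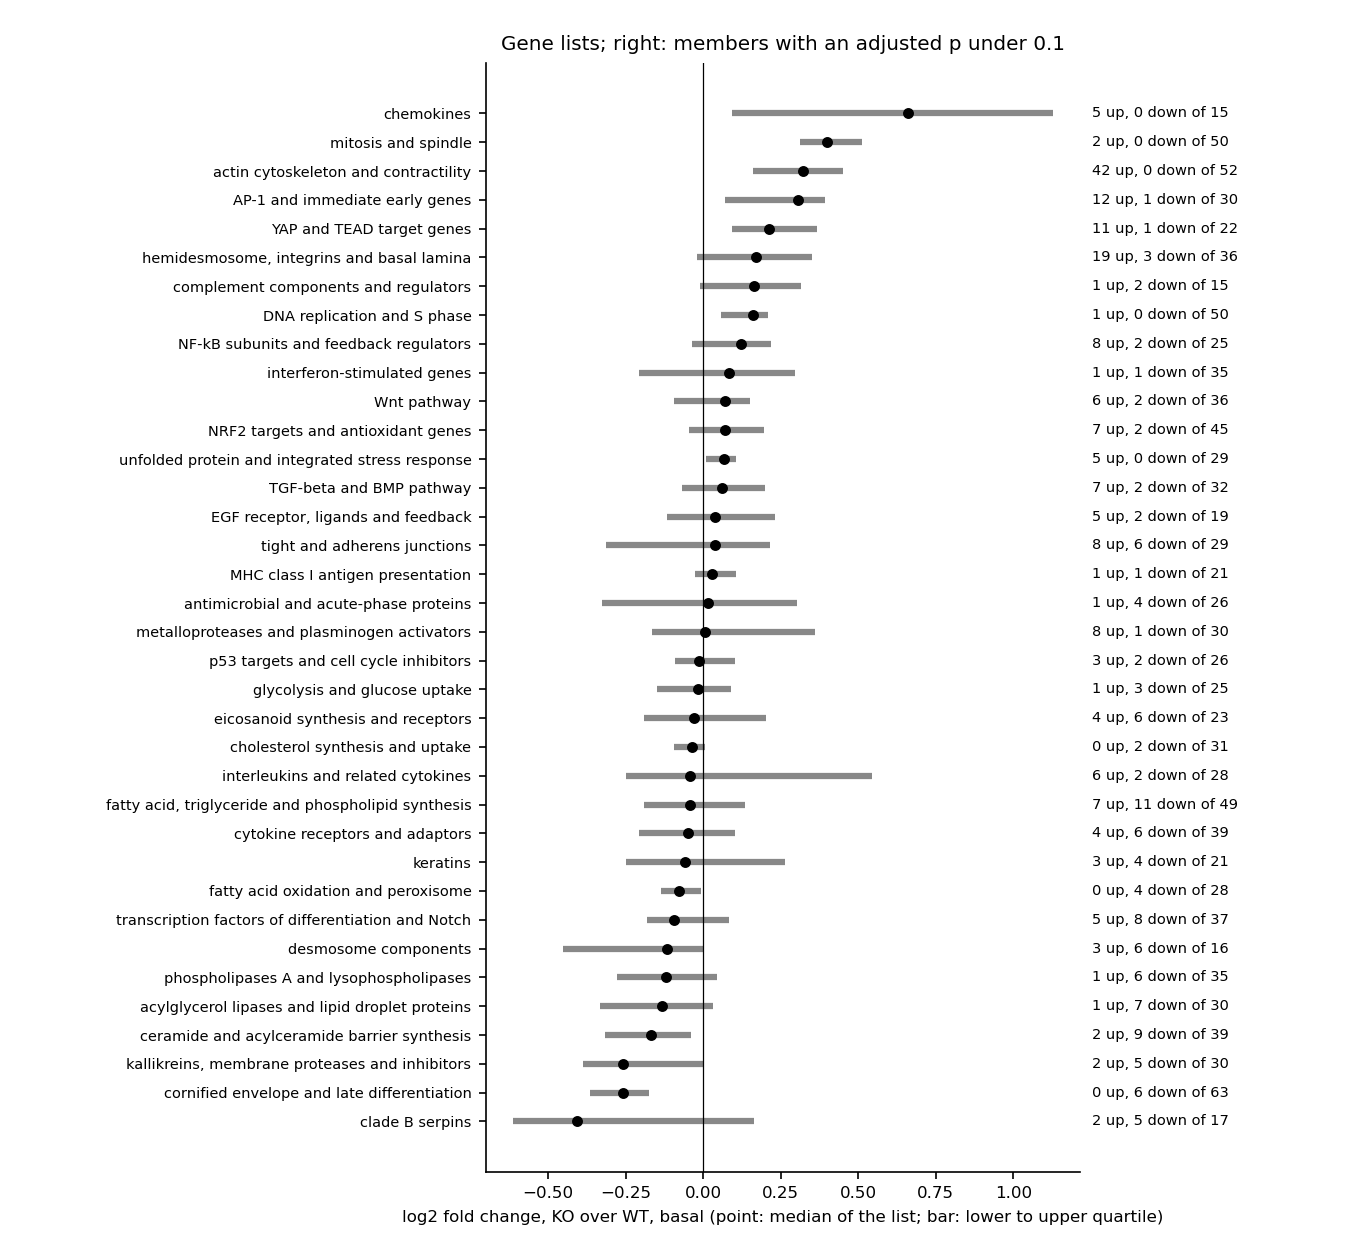
Median log2 fold change (point) and quartiles (bar) of 36 gene lists between KO and WT cells under basal conditions, with the number of members that passed an adjusted p of 0.1 in each direction at the right. Chemokines (0.66), mitosis (0.40) and actin genes (0.32) have the highest medians, but 42 of 52 actin genes passed the test against 2 of 50 mitotic genes, and clade B serpins (-0.41) have the lowest median.

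Of the cytokine ligands, 5 of 15 measured chemokines rose and 0 fell, with a median of 0.66, and 6 of 28 interleukins and related cytokines rose and 2 fell, with a median of -0.04. *Tnf*, the inducer of NF-κB that heads many inflammatory responses, had 7.03, 5.14, 4.44, 4.72 and 4.30 CPM in WT and 9.52 to 18.8 CPM (median 11.97) in KO libraries (log2 fold change 1.29, SE 0.16, adjusted p = 2.38e-06). All KO libraries exceeded all WT libraries, and KO replicate 5 was the highest at 18.8 CPM. The neutrophil attractant *Cxcl1* had 8.71, 6.36, 3.96, 4.78 and 6.85 CPM and 9.83 to 15.9 CPM (median 13.1) (log2 fold change 1.07, SE 0.15, adjusted p = 1.54e-05), also without overlap. *Il1a*, the alarmin stored in keratinocytes, had 19.5, 26.2, 17.5, 22.2 and 27.3 CPM and 25.7 to 43.3 CPM (median 33.1) (log2 fold change 0.62, SE 0.13, adjusted p = 0.0021), and 1 KO library lay inside the WT range. *Il23a*, the p19 subunit of IL-23, rose from 0.984 ± 0.501 to 2.62 ± 0.875 CPM (log2 fold change 1.42, SE 0.26, adjusted p = 0.000573).

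The other ligands that passed the test had lower folds or lower levels. *Ccl2*, an attractant of monocytes, rose from 1.90 ± 0.187 to 3.30 ± 0.903 CPM, *Cxcl12* from 4.24 ± 0.941 to 6.68 ± 1.40 CPM and *Tnfsf15* from 3.02 ± 0.529 to 4.70 ± 0.841 CPM. *Cxcl16*, a chemokine made in a membrane-bound form, rose from 181 ± 9.08 to 232 ± 12.9 CPM (log2 fold change 0.36, SE 0.05, adjusted p = 2.58e-05) and the genotypes did not overlap. *Lif*, of the IL-6 family, rose from 8.51 ± 0.793 to 11.7 ± 0.922 CPM (log2 fold change 0.46, SE 0.08, adjusted p = 0.00049) without overlap. *Cxcl2* had a mean under 1 CPM in both groups and rose from 0.248 ± 0.194 to 0.708 ± 0.285 CPM (log2 fold change 1.55, SE 0.40, adjusted p = 0.0115), but it did not pass in a fit of the basal libraries alone. *Ccl9* was near 0, from 0.0328 ± 0.0457 to 0.176 ± 0.205 CPM, and did not pass the test (adjusted p = 0.149). Both epithelial alarmins of type 2 inflammation fell, *Il33* from 14.04 ± 4.12 to 9.05 ± 3.54 CPM (log2 fold change -0.63, SE 0.23, adjusted p = 0.0856) and *Tslp* from 37.9 ± 12.1 to 25.4 ± 7.59 CPM (log2 fold change -0.58, SE 0.20, adjusted p = 0.069). WT replicate 1 had the highest chemokine mean of the WT libraries (0.25, against -0.45 or lower in the others), and without it 7 chemokines rose and 1 fell. Of the interleukins and related cytokines 4 fell without WT replicate 1 or without KO replicate 8. The count of falls was 0 without any 1 of WT replicates 2 and 5 and KO replicates 1, 2, 5 and 6. It was also 0 without WT replicate 2 and KO replicate 4 together.

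Receptors went both ways. In the list of cytokine receptors and adaptors 4 of 39 genes rose and 6 fell, beside 7.57% and 6.06% of all genes tested, and none was called. *Il1r1*, the receptor of IL-1, rose (log2 fold change 0.40, SE 0.07, adjusted p = 0.000676), as did *Tlr2* (0.45). *Il13ra1* fell from 71.4 ± 6.22 to 48.99 ± 5.64 CPM (log2 fold change -0.54, SE 0.09, adjusted p = 0.000115), and *Il20rb* (-0.46) and *Il1rl2* (-0.31), the receptor of IL-36, fell as well, in each case with all KO libraries under all WT libraries.

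NF-κB subunits and feedback regulators, some of which are themselves NF-κB targets, rose in 8 of 25 genes and fell in 2 (median 0.12). None was called, and the shares over all genes tested were 7.57% higher and 6.06% lower. *Tnfaip3*, the inhibitor A20, had 34.8, 33.7, 32.2, 30.1 and 33.4 CPM in WT and 40.7 to 54.04 CPM (median 49.02) in KO libraries (log2 fold change 0.58, SE 0.07, adjusted p = 2.31e-06). *Relb* (0.36), *Nfkb2* (0.35) and the RNase gene *Zc3h12a* (0.29) rose, again without overlap. *Tnip2* (-0.53) and *Birc2* (-0.37) fell. The kappa B motif was found in 46.7% of the 15 promoters of chemokine genes and in 7.55% of those of the actin list, beside 8.33% for genes called higher, 4.44% for genes called lower and 5.35% for all promoters. Of the chemokine genes with the motif *Cxcl1* and *Cxcl2* rose, and *Ccl9*, *Ccl20*, *Ccl27a*, *Cxcl3* and *Cxcl10* did not pass the test. *Ccl2*, *Cxcl12* and *Cxcl16*, which rose, were not among the genes with the motif. Windows of *Cxcl1*, *Cxcl2* and *Tnfaip3* show it in capitals, as sites next to some of the ligand and feedback genes that rose:
Cxcl1: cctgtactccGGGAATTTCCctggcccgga
Cxcl2: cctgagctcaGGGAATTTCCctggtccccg
Tnfaip3: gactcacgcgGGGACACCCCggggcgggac
These lie at chr5:90891164-90891193 and chr5:90903792-90903821 on the plus strand and at chr10:19015516-19015545 on the minus strand of GRCm38.p6, 71, 97 and 125 bases before the start. A match to the other strand that is shifted by 1 base overlaps those of *Cxcl1* and *Cxcl2*, whose motifs are the same. *Tnfaip3* holds a further match that starts 12 bases before its start. *Nfkb2*, which rose, holds several matches, and these windows are not printed.

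AP-1 members and immediate early genes, which respond to growth factor and stress kinases within minutes, rose in 12 of 30 genes and fell in 1 (median 0.31). *Egr1* had 114, 114, 158, 109 and 170.3 CPM in WT and 238 to 306 CPM (median 261) in KO libraries (log2 fold change 0.997, SE 0.24, adjusted p = 0.00692), without overlap. The stress factor *Atf3* rose from 25.8 ± 4.70 to 42.9 ± 3.26 CPM (log2 fold change 0.73, SE 0.10, adjusted p = 1.79e-05), and *Fos* from 78.96 ± 14.7 to 119 ± 14.8 CPM (log2 fold change 0.59, SE 0.18, adjusted p = 0.035). Both phosphatase genes of the ERK pathway, *Dusp6* (0.70) and *Dusp5* (0.68), rose with all KO above all WT libraries. *Klf10* fell (-0.15). A CArG box was present in 24.1% of the 29 promoters of this list, which belong to 23 genes. Of the 7 promoters with the box 4 are those of *Egr2*, and the others are those of *Dusp5*, *Srf* and *Zfp36*. The AP-1 motif TGANTCA lay in 0 of the 29 promoters, beside 5.67% of all promoters and 8.33% of those of genes called higher.

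**Figure D4:**
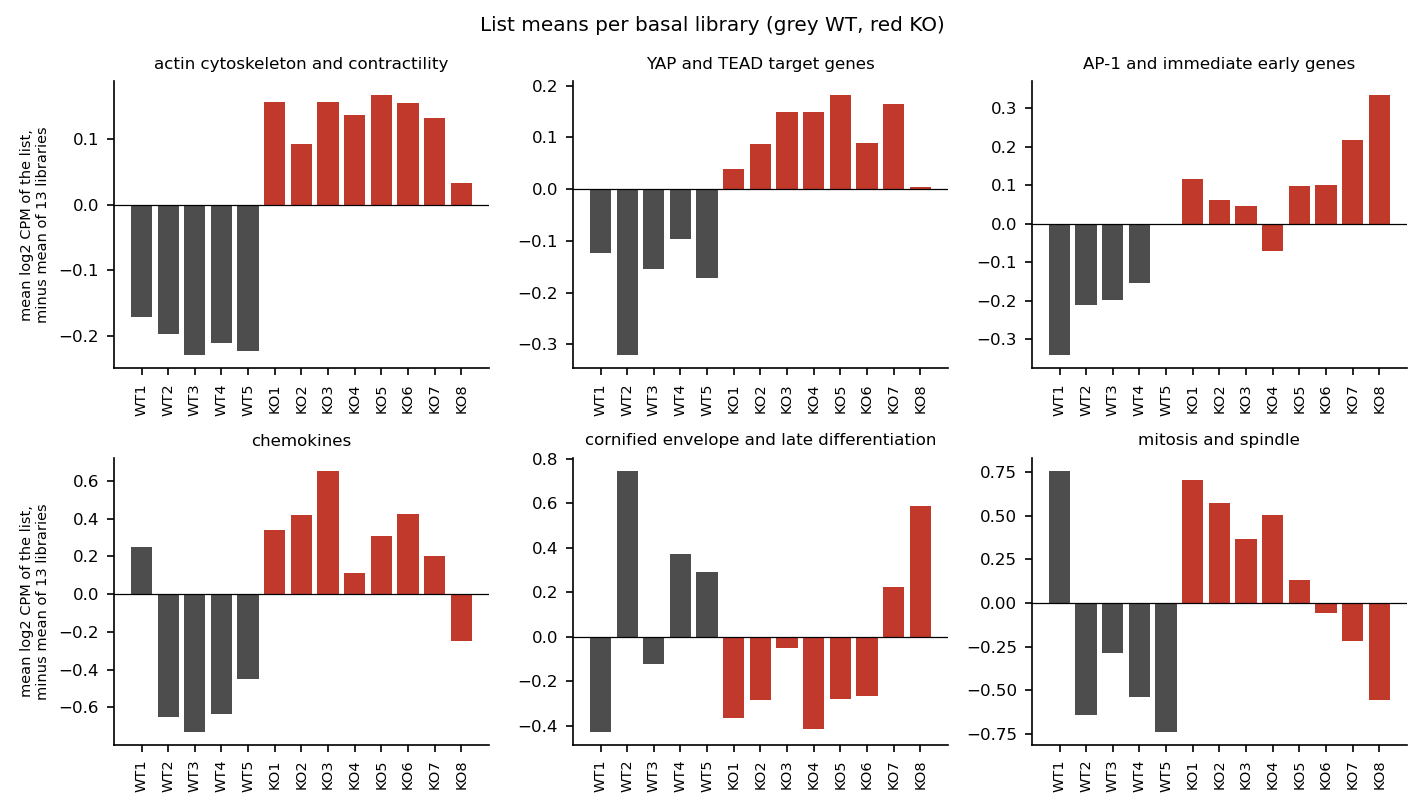
Mean log2 CPM of 6 gene lists in each basal library, as the difference from the mean of the 13 libraries (grey WT, red KO). In the actin and YAP lists every KO library lies above every WT library, whereas WT1 (0.76) is the highest of all in the mitosis list and the lowest (-0.43) in the cornified envelope list.

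The EGF receptor ligand *Hbegf* rose from 13.2 ± 3.06 to 22.7 ± 3.06 CPM (log2 fold change 0.79, SE 0.13, adjusted p = 0.00021), while the receptors *Erbb2* (-0.24) and *Erbb3* (-0.15) fell, and 5 of 19 genes of that list rose and 2 fell. In the TGF-β and BMP pathway 7 of 32 genes rose and 2 fell, and 4 rose without KO replicate 5 or without WT replicate 2 and KO replicate 4. *Inhba*, the subunit of activin A, had 195, 170.0, 161, 141 and 173 CPM in WT and 214 to 308 CPM (median 271) in KO libraries (log2 fold change 0.69, SE 0.08, adjusted p = 9.06e-07), and *Tgfbi* fell from 239.9 ± 47.98 to 161 ± 16.1 CPM (log2 fold change -0.58, SE 0.11, adjusted p = 0.000859), both without overlap. In the Wnt pathway 6 of 36 genes rose and 2 fell, among them the secreted modulator *Dkk3* (log2 fold change 0.67, SE 0.07, adjusted p = 2.59e-07) and *Wnt9a* (0.61), and 3 rose without WT replicate 2, with or without KO replicate 4. Of all genes tested 7.57% rose and 6.06% fell.

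Further genes outside these lists, chosen after their values were seen, had some of the smallest p values. Endothelin 1, *Edn1*, rose from 23.8 ± 4.38 to 47.6 ± 7.54 CPM (log2 fold change 1.002, SE 0.11, adjusted p = 4.96e-07), the natriuretic peptide gene *Nppb* from 11.2 ± 1.90 to 22.2 ± 4.31 CPM (log2 fold change 0.99, SE 0.14, adjusted p = 3.16e-05), *Phlda1* from 66.7 ± 8.37 to 125 ± 8.45 CPM (log2 fold change 0.91, SE 0.09, adjusted p = 2.15e-07) and the receptor gene *Gpr149* from 6.09 ± 0.909 to 13.3 ± 1.74 CPM (log2 fold change 1.12, SE 0.12, adjusted p = 2.15e-07). The carbonic anhydrase gene *Car12* fell from 189 ± 14.3 to 116 ± 9.98 CPM (log2 fold change -0.71, SE 0.07, adjusted p = 1.57e-07). None of these 5 genes showed overlap.

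Few defence genes passed the test. Among interferon-stimulated genes 1 of 35 rose (*Gbp2*, 0.69, adjusted p = 0.150 with the mouse as a block) and 1 fell (*Irf9*, -0.44), with a median of 0.08, under the 7.57% and 6.06% of all genes. MHC class I genes were split likewise, with *Tapbp* higher (0.32) and *Tap1* lower (-0.34) of 21, but 5 rose and 1 fell without WT replicate 1, and 3 rose without KO replicate 8. Of 26 antimicrobial and acute-phase genes 1 rose, *Serpina3n* named above, and 4 fell, among them the β-defensin gene *Defb1* from 290.2 ± 37.3 to 223 ± 38.1 CPM (log2 fold change -0.38, SE 0.12, adjusted p = 0.0389), and 2 fell without WT replicate 4. In the complement list *C3*, its central component, rose from 1.71 ± 1.66 to 4.30 ± 2.13 CPM (log2 fold change 1.33, SE 0.39, adjusted p = 0.0272), where WT replicate 1 held 4.62 CPM, and 2 of 15 fell, among them *Cd55* (-0.44), which limits complement on cells.

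Genes of late differentiation that passed the test were lower in KO cells, and their number depended on which mice were compared. Of 63 genes of the cornified envelope and late differentiation 0 rose and 6 fell, beside 6.06% of all genes tested that fell. Those called numbered 3, and 59 had a lower fitted level (median -0.26). The list mean ran from -0.43 to 0.74 in WT and from -0.41 to 0.59 in KO libraries, so that the KO libraries lay within the WT range. Without WT replicate 1, which had the lowest list mean of all 13 libraries, 20 genes fell and the median was -0.40. Leaving out KO replicate 8 also gave 20 falls, and leaving out KO replicate 7 gave 12. Of the other mice, leaving out WT replicate 2 or 1 of KO replicates 1 and 5 gave 2 falls, and leaving out 1 of WT replicates 4 and 5 and KO replicates 3 and 6 gave 3. Without WT replicate 2 and KO replicate 4, 2 genes fell and the median was -0.04. Transglutaminase *Tgm3* fell from 17.3 ± 1.53 to 11.4 ± 2.67 CPM (log2 fold change -0.60, SE 0.15, adjusted p = 0.00904), *Sprr2a3*, of the small proline-rich proteins, from 224 ± 45.8 to 149 ± 20.3 CPM (log2 fold change -0.59, SE 0.14, adjusted p = 0.00572) and *Hrnr* from 154 ± 52.8 to 99.7 ± 34.2 CPM (log2 fold change -0.63, SE 0.23, adjusted p = 0.0865). *Sprr2a3* belongs to a family of near-identical copies, so that its counts are uncertain.

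Desmosomal genes moved in both directions. Of 16 genes 6 fell and 3 rose. The cadherins of differentiated layers fell most, with *Dsg1a* at 226, 364, 241, 326 and 302 CPM in WT and 124 to 225 CPM (median 159.8) in KO libraries (log2 fold change -0.82, SE 0.18, adjusted p = 0.00362), and *Dsc1* from 333 ± 73.8 to 199 ± 63.5 CPM (log2 fold change -0.74, SE 0.22, adjusted p = 0.0335). *Dsg1b* (-0.54), close in sequence to *Dsg1a* so that reads could be split between them, and *Dsc3*, from 1092 ± 103 to 815 ± 61.7 CPM (log2 fold change -0.42, SE 0.06, adjusted p = 5.81e-05), fell as well. Plakophilin 2, *Pkp2*, rose (log2 fold change 0.38, SE 0.06, adjusted p = 7.49e-05), with its partner *Dsg2* (0.33), both also found in simple epithelia, and *Pkp4* (0.15). Without WT replicate 2 and KO replicate 4 2 genes fell and 1 rose, and 3 fell without WT replicate 2 alone.

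Keratins rose in 3 and fell in 4 of 21 genes, beside 7.57% and 6.06% of all genes tested. The pair of simple epithelia named above made up most of the rises. The count of falls was 1 without WT replicate 2, with or without KO replicate 4, and 2 when KO replicate 1 or 1 of WT replicates 4 and 5 was left out. *Krt1*, the keratin of suprabasal cells, had 1033, 1908, 1415, 1811 and 1440.3 CPM in WT and 726 to 1447 CPM (median 813) in KO libraries (log2 fold change -0.75, SE 0.18, adjusted p = 0.00776). KO replicate 8 held 1447 CPM and overlapped the WT range. *Krt6b* (-0.35) and *Krt16* (-0.25), of activated epidermis, fell, whereas *Krt17* rose from 7500.2 ± 561 to 9359 ± 692 CPM (log2 fold change 0.32, SE 0.05, adjusted p = 0.000108). In tight, adherens and gap junctions 8 of 29 genes rose and 6 fell, where 2 fell without WT replicate 2 and 3 without it and KO replicate 4. *Cldn1*, needed for the tight junction barrier, fell from 512 ± 92.7 to 389.8 ± 51.3 CPM (log2 fold change -0.39, SE 0.12, adjusted p = 0.035), the connexin *Gja1* fell from 207 ± 16.6 to 159.7 ± 6.03 CPM without overlap (log2 fold change -0.37, SE 0.06, adjusted p = 0.000105), and *Cldn3* (0.81) and *Cgn* (0.24) rose.

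Of 37 transcription factors and Notch genes which direct differentiation, 8 fell and 5 rose, and none was called. Without WT replicate 1 or KO replicate 8 13 fell, without WT replicate 2 or WT replicate 4 it was 4, and without WT replicate 2 and KO replicate 4 it was 3. *Notch3* fell from 59.3 ± 7.18 to 40.4 ± 7.13 CPM (log2 fold change -0.55, SE 0.10, adjusted p = 0.000321) and *Ovol1* by 0.33 on the log2 scale. *Sox9*, a factor of hair follicle and injured cells, rose from 109 ± 13.1 to 142 ± 10.7 CPM (log2 fold change 0.38, SE 0.09, adjusted p = 0.00475), without overlap. In the list of kallikreins, membrane proteases and their inhibitors 5 of 30 genes fell and 2 rose (median -0.26), where 10 fell without KO replicate 8, 8 without WT replicate 1 and 3 without WT replicate 2 and KO replicate 4. Besides *Klk11* those that fell included the protease gene *Tmprss4* (log2 fold change -0.58, SE 0.14, adjusted p = 0.00549), *Spink5*, the kallikrein inhibitor LEKTI, from 663 ± 167 to 471 ± 97.4 CPM (log2 fold change -0.49, SE 0.15, adjusted p = 0.0394), and *Stfa2* (-0.67). Clade B serpins fell in 5 and rose in 2 of 17 genes (3 fell without any 1 of WT replicates 3 and 5 and KO replicates 1, 3, 5 and 6), with *Serpinb3b* (-1.02) and *Serpinb3a* (-0.94) falling most. These are close copies of each other and their counts are uncertain, and *Serpinb3a* had an adjusted p of 0.303 with the mouse as a block.

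The lipid genes nearest to *Pla2g4d* were examined next. On chromosome 2 of GRCm39, *Pla2g4b* (119863898 to 119873511), *Pla2g4e* (119996893 to 120076084), *Pla2g4d* and *Pla2g4f* (120130438 to 120144653) lie within 1 cluster. *Pla2g4f* had 10.6, 13.9, 10.2, 16.9 and 15.6 CPM in WT and 5.81 to 12.9 CPM (median 8.39) in KO libraries (log2 fold change -0.63, SE 0.18, adjusted p = 0.0258). *Pla2g4b* was low and fell from 0.608 ± 0.214 to 0.240 ± 0.191 CPM (log2 fold change -1.34, SE 0.45, adjusted p = 0.0582), and *Pla2g4e* went from 16.2 ± 4.84 to 14.2 ± 2.89 CPM without passing the test (log2 fold change -0.19, SE 0.18, adjusted p = 0.594). In the whole list of phospholipases A and lysophospholipases 6 of 35 genes fell and 1 rose (median -0.12), beside 6.06% and 7.57% of all genes tested. *Plbd1* fell from 54.2 ± 6.83 to 37.6 ± 6.72 CPM (log2 fold change -0.52, SE 0.12, adjusted p = 0.0046), the glycerophosphodiesterase *Gpcpd1* from 37.7 ± 2.44 to 27.1 ± 4.02 CPM (log2 fold change -0.48, SE 0.09, adjusted p = 0.000839), the lysophospholipase *Pnpla6* from 35.9 ± 2.90 to 29.4 ± 2.02 CPM (log2 fold change -0.29, SE 0.06, adjusted p = 0.00296) and *Pnpla8* by 0.16 on the log2 scale.

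Among acylglycerol lipases and lipid droplet proteins 7 of 30 genes fell and 1 rose (median -0.13), beside 6.06% and 7.57% of all genes tested. *Aadacl2* had 5.97, 8.75, 7.63, 9.49 and 6.74 CPM in WT and 2.16 to 4.84 CPM (median 3.25) in KO libraries (log2 fold change -1.19, SE 0.29, adjusted p = 0.00783). The epidermal acid lipases *Lipk*, from 11.9 ± 4.68 to 7.55 ± 1.95 CPM (log2 fold change -0.65, SE 0.21, adjusted p = 0.0423), and *Lipm*, from 95.2 ± 25.3 to 66.3 ± 15.5 CPM (log2 fold change -0.52, SE 0.17, adjusted p = 0.054), are made late in differentiation, and *Lipk* had an adjusted p of 0.129 with the mouse as a block. *Lipg* fell from 44.3 ± 5.63 to 37.3 ± 3.95 CPM (log2 fold change -0.25, SE 0.08, adjusted p = 0.0569), and *Adtrp*, a hydrolase of hydroxy fatty acid esters, from 64.4 ± 11.2 to 50.9 ± 6.82 CPM (log2 fold change -0.34, SE 0.10, adjusted p = 0.0375). *Naaa*, which cleaves N-acylethanolamines, rose (0.31). Leaving out WT replicate 2, 4 or 5 alone gave 4 falls. Leaving out WT replicate 2 and KO replicate 4, 3 genes of this list fell and the median was -0.03.

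Ceramide and acylceramide synthesis, the source of the water barrier, fell in 9 and rose in 2 of 39 genes (median -0.17). The shares over all genes tested were 6.06% lower and 7.57% higher. *Elovl4*, which makes the very long fatty acids of acylceramides, fell from 245 ± 60.7 to 177 ± 44.9 CPM (log2 fold change -0.47, SE 0.16, adjusted p = 0.0677), and *Sptlc3* (-0.52), *Cyp4f39* (-0.48) and the alkaline ceramidase *Acer1* (log2 fold change -0.55, SE 0.20, adjusted p = 0.0861) fell as well. *Cers2*, a ceramide synthase for very long acyl chains, rose from 13.4 ± 5.75 to 22.99 ± 4.78 CPM (log2 fold change 0.78, SE 0.17, adjusted p = 0.00313), where WT replicate 1 held 23.2 CPM and the other WT libraries 13.4 CPM or less. In the list 17 genes fell without WT replicate 1, 18 without KO replicate 8 and 3 without WT replicate 2 and KO replicate 4. Single omissions of WT replicate 2 or 4 gave 3 falls, of KO replicate 1 or 5 gave 4, and of WT replicate 5 or KO replicate 2 or 3 gave 5.

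Arachidonic acid released by phospholipases A2 feeds eicosanoids, and of 23 genes of their synthesis and receptors 4 rose and 6 fell. *Ptgs2*, the inducible cyclooxygenase COX-2, had 494, 509, 547, 459 and 679 CPM in WT and 730.1 to 979 CPM (median 851) in KO libraries (log2 fold change 0.65, SE 0.12, adjusted p = 0.000418), without overlap. The prostaglandin transporter *Slco2a1* rose from 116 ± 6.42 to 159 ± 20.5 CPM (log2 fold change 0.45, SE 0.08, adjusted p = 0.000382), and *Alox12* from 2.64 ± 0.662 to 4.29 ± 0.785 CPM (log2 fold change 0.70, SE 0.19, adjusted p = 0.0151). Both receptors of leukotriene B4 fell, *Ltb4r1* from 8.03 ± 1.16 to 5.14 ± 0.730 CPM (log2 fold change -0.64, SE 0.16, adjusted p = 0.00708) and *Ltb4r2*, with 16.4, 13.3, 18.1, 14.2 and 18.7 CPM in WT and 9.33 to 13.1 CPM (median 9.78) in KO libraries (log2 fold change -0.63, SE 0.13, adjusted p = 0.00151). *Hpgds* (-0.53) and *Ptges* (-0.29, adjusted p = 0.108 with the mouse as a block) of prostaglandin synthesis fell. Without WT replicate 2, with or without KO replicate 4, 3 genes of this list fell.

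Synthesis of fatty acids, triglycerides and phospholipids moved in both directions, with 7 of 49 genes higher and 11 lower (7 without WT replicate 4 or 5) and a median of -0.04. The acyl-CoA synthetases went apart, with *Acsl1* lower, from 85.4 ± 14.3 to 58.1 ± 5.71 CPM (log2 fold change -0.55, SE 0.09, adjusted p = 0.000111), and *Acsl4*, which prefers arachidonic acid, higher, from 49.8 ± 5.06 to 64.3 ± 7.15 CPM (log2 fold change 0.37, SE 0.07, adjusted p = 0.00128). *Lpcat1* (0.52) and *Fads3* (0.47) rose, and *Dgat1* (-0.34) and *Cept1* (-0.34) fell. In the lists of cholesterol synthesis (2 of 31 lower, *Sc5d* and *Ebp*), fatty acid oxidation (4 of 28 lower, among them *Fabp5* from 2858 ± 373 to 2302 ± 332 CPM, and 7 lower without WT replicate 1 or KO replicate 8) and glycolysis (1 of 25 higher and 3 lower, and 7 higher without WT replicate 1) no gene was called. The shares over all genes tested were 7.57% higher and 6.06% lower.

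Of 45 NRF2 targets and antioxidant genes 7 rose and 2 fell, and 13 rose without WT replicate 1 and 11 without KO replicate 8. Levels rose for *Osgin1* from 1.58 ± 0.357 to 3.37 ± 0.487 CPM (log2 fold change 1.09, SE 0.20, adjusted p = 0.000438) and *Gpx2* from 3.35 ± 1.46 to 6.19 ± 2.03 CPM (log2 fold change 0.88, SE 0.24, adjusted p = 0.0183). Of 29 genes of the unfolded protein and integrated stress responses 5 rose, all by less than 0.20 on the log2 scale. Leaving out 1 of WT replicates 2 to 5 or of KO replicates 1, 2, 3, 5 and 6 gave between 1 and 3 rises. Of 26 p53 targets 3 rose, among them *Plk2* (log2 fold change 0.51, SE 0.10, adjusted p = 0.0016), and 2 fell, *Trp53inp1* (log2 fold change -0.41, SE 0.07, adjusted p = 0.000111) and *Perp* (-0.25), beside 7.57% and 6.06% of all genes tested.

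Cell division genes had higher fitted levels in KO cells but few passed the test in all 13 libraries. Of 50 mitosis and spindle genes 49 had a positive log2 fold change and 2 rose, *Anln* from 57.7 ± 27.6 to 95.3 ± 25.6 CPM (log2 fold change 0.72, SE 0.22, adjusted p = 0.035) and *Tpx2* from 29.8 ± 12.4 to 45.2 ± 10.2 CPM (log2 fold change 0.60, SE 0.20, adjusted p = 0.0569), and the median was 0.40. The list mean of WT replicate 1 (0.76) was the highest of the 13 libraries, while the other WT libraries lay at -0.29 or lower, and KO libraries ran from -0.56 in replicate 8 to 0.70 in replicate 1. With WT replicate 1 left out, 45 of 50 genes rose and the median was 0.79, and with WT replicate 2 and KO replicate 4 left out the median was 0.26. DNA replication genes did likewise, with 1 of 50 higher (*Rrm2*, 0.37) in all mice and 22 without WT replicate 1. The 4 libraries with the highest mitosis mean, WT replicate 1 and KO replicates 1, 2 and 4, also had the 4 lowest means of the cornified envelope list, between -0.43 and -0.29, and the part of proliferation in either result was not tested.

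Cell type markers apart, of the 168 named genes that passed the test, none changed direction under any alternative and 44 missed an adjusted p of 0.1 when 1 mouse was left out, where the adjusted p reached up to 0.350. Leaving out WT replicate 2 cost 33 of them, WT replicate 4 cost 31 and WT replicate 5 cost 28, while each KO mouse cost between 0 and 21. *Pla2g4d* and *Rrm2* missed it in 10 of the 13 cases, and *Acer1*, *Hrnr*, *Klf10* and *Ptges* in 9. *Il33*, *Sptlc3*, *Tslp*, *Tpx2*, *Elovl4*, *Frem2*, *Hpgds*, *Pnpla8*, *Erbb3*, *Lipm*, *Krt6b*, *Ovol1* and *Itgb8* missed it in 5 to 8 cases. Fewer cases were lost for *Pla2g4b*, *Irf9*, *Naaa*, *Lipg*, *Gbp2*, *Anln*, *Pkp4*, *Col4a6*, *Mmp9*, *C3*, *Adtrp*, *Cyp4f39*, *Spink5*, *Lipk*, *Krt8*, *Krt16*, *Lima1*, *Pla2g4f*, *Sc5d*, *Tap1*, *Perp*, *Fos*, *Fabp5*, *Dsc1* and *Defb1*. *Acta2*, *Actb*, *Myh10*, *Tagln*, *Fscn1*, *Cnn2*, *Col4a1*, *Col4a2*, *Fn1*, *Tnf*, *Cxcl1*, *Inhba*, *Ptgs2*, *Dsg1a* and *Klk11* passed in all 13 cases.

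The basal difference was then set beside that of the same mice with cytokines, where 479 genes (2.84%) passed an adjusted p of 0.1. Of the 453 genes called under basal conditions 378 had the same sign with cytokines, 427 had a smaller log2 fold change and 64 passed the test there. In the 272 genes called higher the median fell from 0.87 to 0.24, and in the 181 called lower the median went from -0.79 to -0.39. Genes called in both conditions numbered 36, which is 7.95% of the basal calls and 30.3% of the 119 calls with cytokines. The difference of the genotype effect between conditions, tested as an interaction, had an adjusted p under 0.1 in 166 genes (0.983%), among them 35 of the 272 genes called higher and 3 of the 181 called lower. Of the 166, 37 also differed by more than 1.5-fold, and 80 genes did so with the mouse as a replicate block. Since these genes were chosen for a large basal difference, the counts of smaller folds are a description.

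Genes of the cytoskeleton and of signalling were among those that differed between conditions. The interaction passed for 21 of 52 actin genes, beside 0.983% of all genes tested, and for 6 of 25 NF-κB genes, 4 of 30 AP-1 genes and 3 of 15 chemokines, and for 0 of 63 cornified envelope genes and 0 of 50 mitosis genes. The median of the actin list was 0.32 under basal conditions and 0.10 with cytokines, where 10 members were higher in KO cells. *Acta2* had a log2 fold change of 0.79 under basal conditions and 0.15 with cytokines (interaction adjusted p = 0.00251), *Actb* 0.55 and 0.16 (0.00251), *Ccn1* 0.83 and 0.04 (0.0134) and *Plaur* 1.05 and 0.04 (0.0301). *Tnf* went from 1.29 to -0.03 (0.00251), *Tnfaip3* from 0.58 to -0.06 (0.00201), *Cxcl1* from 1.07 to 0.25 (0.0484) and *Inhba* from 0.69 to 0.05 (0.00364). By contrast *Col4a1* was 0.63 higher under basal conditions and 0.66 higher with cytokines (interaction adjusted p = 0.972), *Apod* 1.96 and 1.36 (0.684), *Krt1* -0.75 and -1.42 (0.389) and *Klk11* -1.04 and -1.19 (0.944), where a difference between conditions was not shown.

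**Figure D5:**
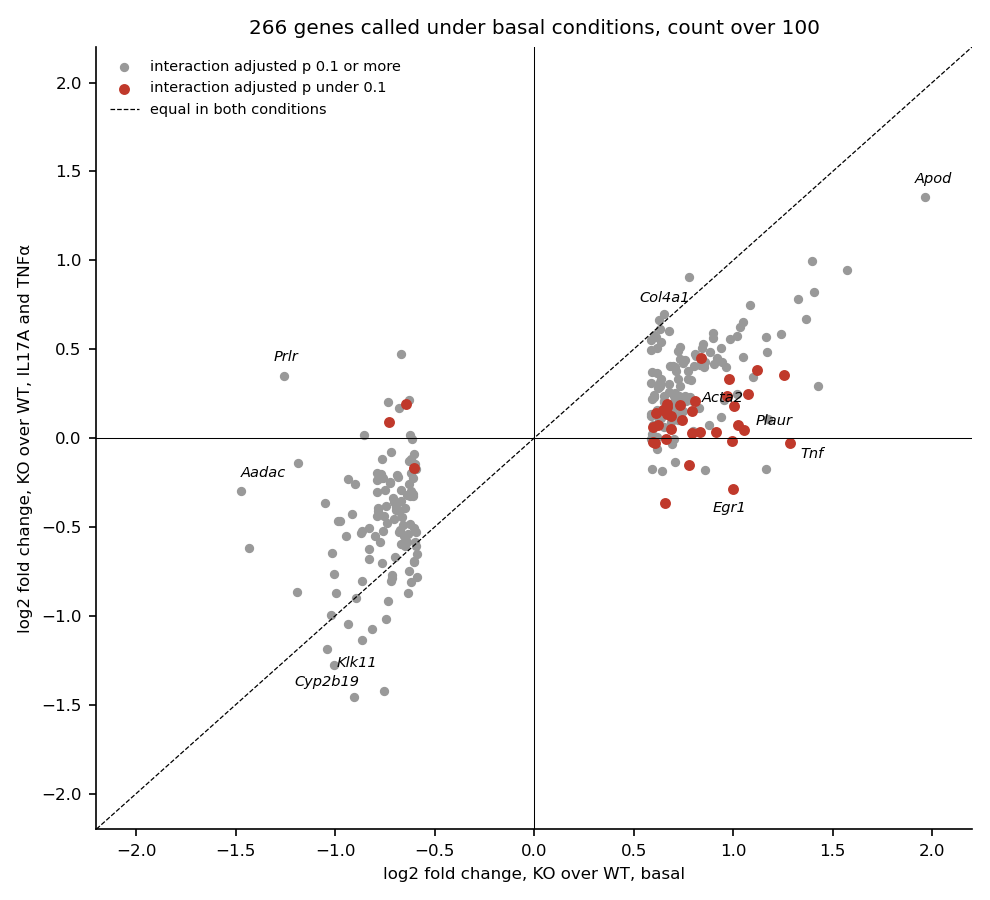
Log2 fold change between KO and WT cells under basal conditions (x axis) and with IL17A and TNFα (y axis) for the 266 genes called under basal conditions with a mean normalized count over 100. The 36 genes in red have an interaction adjusted p under 0.1. *Tnf* (1.29 and -0.03), *Egr1* (0.997 and -0.29) and *Plaur* (1.05 and 0.04) lie near or under 0 with cytokines. *Apod* (1.96 and 1.36) is higher in KO cells in both conditions and lies below the dashed line of equal change.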

How the data were processed

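Counts were deposited by the authors as whole reads per gene for 26 libraries. Per the labels and the methods of the study, RNA isolated with TRIzol was made into TruSeq stranded mRNA libraries, sequenced on an Illumina NovaSeq, aligned with STAR 2.7.10b to mm39 and counted with featureCounts 2.0.6. Each library pooled wells of 1 mouse. Log2 normalized values deposited by the authors were used only for 1 alternative. No counts were left out for want of a gene name.

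Genes with a mean DESeq2-normalized count over 10 (16893 of 56738) were tested with edgeR 4.0.16 (quasi-likelihood, TMM, 4 groups of genotype and condition, all 26 libraries, R 4.3.3), with the contrast of KO against WT under basal conditions. "Rose" and "fell" mean an adjusted p (Benjamini-Hochberg) under 0.1, and "called" adds a change of over 1.5-fold, as in the methods of the study. Standard errors are those of the log2 fold change, and ± gives the SD over mice. On simulated data with 200 genes changed 2-fold, 90% were recovered with 9 false calls among 16893 genes. The simulated libraries were independent, with no shared effect of a mouse and no library that stood apart. The changed genes were not drawn from the lowest levels. The rates therefore need not hold for the real libraries. DESeq2 1.42.0 and limma 3.58.1 served as alternatives.

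The comparison, the 45 gene lists and the alternatives were chosen with earlier results of these data known. Named genes were the 12 largest rises and falls among called autosomal genes with a mean normalized count over 100, up to 4 of each direction per list above that level, and genes that the study names for basal conditions. Genes outside this rule were chosen after their values were seen, and some genes are not reported here. *Sprr2a3*, *Dsg1a* and *Serpinb3a* have close copies. Replicate numbers pair basal and treated libraries of 1 mouse (correlation of deviations 0.00051 to 0.254 over 13 pairs, 8 over 0.1), but not WT with KO mice, which are different animals. Promoters are those of RefSeq for GRCm38.p6, while gene coordinates are from GENCODE on GRCm39, and motifs were counted once per promoter.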

Additional observations from a re-analysis of the deposited data

Results flagged for a closer look

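Values of single mice far from the rest of their group were looked for with Dixon's test in the 180 named genes and 5 list means, and 29 of 370 groups of libraries gave one, where chance gives about 1 in 20. WT replicate 1 stood above the other WT libraries in *Krt8* (8.82 CPM), *C3* (4.62 CPM), *Cldn3* (5.76 CPM), *Osgin1* (2.205 CPM), *Anln* (106 CPM), *Tpx2* (51.4 CPM), *Rrm2* (74.4 CPM) and the mean of the chemokines (0.25), and below them in *Tgm3* (14.6 CPM), *Irf9* (12.7 CPM) and *Sptlc3* (13.4 CPM). In 9 of these 10 named genes and in the chemokine mean it lay within the range of the KO libraries.

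KO replicate 8 stood above the other KO libraries in *Krt1* (1447 CPM), *Tgm3* (17.4 CPM), *Sprr2a3* (195 CPM), *Acer1* (24.1 CPM), *Klk11* (8.00 CPM) and *Prlr* (3.50 CPM), and below them in *Acsl4* (47.9 CPM) and *Cgn* (128 CPM). WT replicate 3 was high in *Frem2* (8.47 CPM) and *Tgfbi* (324 CPM) and low in *Lipg* (34.5 CPM) and *Gm42047* (18.8 CPM). KO replicate 4 was low in *Gadd45a* (62.6 CPM), *Myl6* (521 CPM) and *Gm55276* (0.574 CPM). The other single values were *Krt18* in KO replicate 2 (7.92 CPM), *Tnf* (18.8 CPM) in KO replicate 5 and *Fos* in WT replicate 5 (105 CPM).

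The genotype effect differed between conditions, by the interaction test in edgeR, for 37 of the named genes. The difference is the log2 fold change under basal conditions minus that with cytokines. Among actin genes it was 0.64 for *Acta2*, 0.65 for *Tagln*, 0.62 for *Myl9*, 0.39 for *Myh10*, 0.38 for *Actb*, 0.35 for *Cnn2*, 0.33 for *Tpm1* and 0.24 for *Flna*. For genes of adhesion, matrix turnover and cell tension it was 0.80 for *Ccn1*, 0.93 for *Ccn2*, 1.01 for *Plaur*, 0.49 for *Fermt2*, 0.34 for *Pkp2* and -0.49 for *Adamts1*. For cytokines and NF-κB genes it was 1.32 for *Tnf*, 0.83 for *Cxcl1*, 1.02 for *Cxcl12*, 0.38 for *Cxcl16*, 0.48 for *Lif*, 0.64 for *Tnfaip3*, 0.45 for *Relb*, 0.25 for *Nfkb2* and 0.38 for *Zc3h12a*. For growth factors and early genes it was 1.29 for *Egr1*, 0.55 for *Atf3*, 0.76 for *Hbegf*, 0.63 for *Inhba*, 0.53 for *Dkk3* and 0.64 for *Wnt9a*. The remaining differences were 0.82 for *Edn1*, 1.01 for *Nppb*, 0.88 for *Phlda1*, 0.74 for *Gpr149*, 0.55 for *Plk2*, 0.55 for *Sox9*, 0.35 for *Tapbp* and -0.84 for *Ltb4r1*.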

How the results depend on the processing

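Of the 453 calls under basal conditions, 272 were higher and 181 lower. Leaving out each mouse in turn, the count ran from 341 to 824, with 199 to 527 higher and 121 to 297 lower, the highest values coming without WT replicate 1. The 13 basal libraries alone gave 320 calls, 174 higher and 146 lower, and 1566 genes passed there without a threshold on the fold. Of the 168 named genes that passed, 23 did not pass in that fit. Lower genes numbered 301 in limma-voom, 296 with the mouse as a replicate block and 274 without a filter on low counts, and in these fits higher genes numbered 235, 236 and 238, so that lower genes outnumbered higher ones. Another block, of the numbers in the labels, gave 535 calls. Without a threshold on the fold 2303 genes passed, 1279 higher and 1024 lower. When a fold over 1.5 was itself tested with glmTreat of edgeR, 4 genes passed (*Apod*, *Gpr149*, *Rgs4* and *Tnf*), 4 higher and 0 lower, where 202 higher and 105 lower genes had an unadjusted p under 0.05. The interaction gave 37 calls, 60 in DESeq2 and 80 with the mouse as a block. Without the filter the medians of the muscle markers (-0.420) and of the hair follicle and sebaceous markers (-0.415) turned negative, since more genes near 0 entered the lists. The cause of the other changes was not tested. The fit without WT replicate 2 and KO replicate 4 and the voom fit without a block were added after the data were seen. Of the 168 named genes that passed, 117 passed under every alternative run. In limma-voom with the mouse as a block 6 did not pass, as given beside them, and the same 6 did not pass without the block. Each mouse was left out with both of its libraries.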
